A study of Macaca mulatta with 24 samples.

Results

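The genes described here run the endoplasmic reticulum (ER) stress response, also called the unfolded protein response, in omental white adipose tissue (WAT) of female rhesus macaques. The 10 genes were chosen by name for their role, with no measured value in the rule, though earlier results of these data were known. They were *HSPA5*, *HSP90B1*, *CALR*, *PDIA4*, *ERN1*, *XBP1*, *EIF2AK3*, *ATF4*, *DDIT3* and *ATF6*. Of these 10 genes, 9 were matched to the 32386 genes of the count table, and all 9 were among the 15207 genes with enough reads to be tested. *ATF4* is not analysed here.

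RNA-seq was done on whole tissue from 24 animals in 4 groups of 6, all labelled as 4 years old, though the study's methods give an older age at biopsy. Controls (*C*) carried cholesterol implants and ate monkey chow. Animals of the *T* group carried testosterone implants on chow, animals of the *WSD* group had cholesterol implants with a high-fat Western-style diet, and the *T* + *WSD* group had testosterone implants with that diet. The labels place the biopsies in year 3 of treatment, and the study picked the animals as representative of the metabolic state of their group. In whole tissue, fewer cells of a type and less RNA per cell cannot be told apart.

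Secreted and membrane proteins fold in the ER with the help of chaperones. When unfolded proteins build up, separate sensors in the ER membrane respond. IRE1, encoded by *ERN1*, splices the mRNA of the transcription factor *XBP1*, and PERK, encoded by *EIF2AK3*, slows translation and favours *ATF4*, which raises *DDIT3* (CHOP). ATF6 is itself cut to release a transcription factor. Targets of these branches include the chaperones *HSPA5* (BiP), *HSP90B1* (GRP94) and the disulfide isomerase *PDIA4*. In adipose tissue this response is studied in connection with obesity and insulin resistance. A table of read counts per gene does not show *XBP1* splicing, protein cleavage or phosphorylation.

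Libraries held 6899185 to 28270776 counted reads, with a median of 20630512.5. In 8 libraries, 2 from each group, the single gene ENSMMUG00000038258 took 9.92% to 54.7% of the reads, against 0.879% to 2.51% in the other 16, and these are called the 8 high-share libraries below. The 8 were also the shallower libraries, with 6899185 to 17538167 counted reads against 20177588 to 28270776 in the other 16. No label marks them as a batch. Adipocyte markers summed to between 1488 and 15637 CPM (counts per 1e+06 reads) in every library. The sums of these 8 markers ran from 1488 to 10486 CPM in *C*, with a median of 7633. In *T* + *WSD* they ran from 9978 to 14320 CPM with a median of 12522, and 1 of the 8, *LEP*, was called higher by the test described below. The summed level of 10 mesothelial markers, genes of the membrane lining the omentum, ran from 2729 to 39066 CPM in *C* and from 238 to 3091 CPM in *T* + *WSD*, and 8 of the 10 were called lower in *T* + *WSD* than in *C* by the edgeR test described below, which called 10% of all genes in either direction. Summed levels of 7 endothelial markers ran from 958 to 1637 CPM in *C* and from 1792 to 2813 CPM in *T* + *WSD*, with no overlap, and 4 of the 7 were called higher. For 7 macrophage markers the sums ran from 181 to 953 CPM and from 501 to 876 CPM, and for 8 fibroblast markers from 8083 to 24937 CPM and from 7298 to 16427 CPM, with 1 of each called higher. The most abundant markers weigh most in such sums, *ITLN1* in the mesothelial and collagen genes in the fibroblast ones. For B and plasma cells, 6 of 8 listed markers had a row and summed to between 0.998 and 8.04 CPM in every library, while *JCHAIN* and *MZB1* are not analysed here.

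Levels are given as CPM, a gene's share of the reads of its library after correction for library composition. The 4 chaperone genes did not separate any groups, and the animals overlapped in every comparison. *HSPA5*, the main Hsp70-type chaperone of the ER, ran from 138 to 298 CPM in *C* with a median of 176. In *T* it ran from 135 to 370 CPM with a median of 178. In *WSD* it ran from 121 to 325 CPM with a median of 218. In *T* + *WSD* its range was 157 to 246 CPM, which lay inside the range of each other group, with a median of 168. *HSP90B1*, the Hsp90-type chaperone of the ER, averaged 417 ± 48.8 CPM (SD, n = 6) among controls, 400 ± 133 with testosterone, 415 ± 64.8 with the diet and 377 ± 30.5 with both. *CALR*, the lectin chaperone calreticulin, averaged 297 ± 38 CPM (SD, n = 6) among controls, 301 ± 110 with testosterone, 322 ± 63.6 with the diet and 278 ± 21.1 with both. For both genes the differences between means were smaller than the SD of the most variable group.

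*PDIA4* showed the widest spread among animals. It ran from 115 to 190 CPM in *C*, with a median of 151. In *T* it ran from 60.05 to 276 CPM, with a median of 133. In *WSD* it ran from 86.7 to 210 CPM, with a median of 103. The *T* + *WSD* animals lay between 78.6 and 136 CPM with a median of 110, and 4 of these 6 were below every control. Only 2 of the 6 were below every *WSD* animal, and 0 below every *T* animal.

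**Figure D1:**
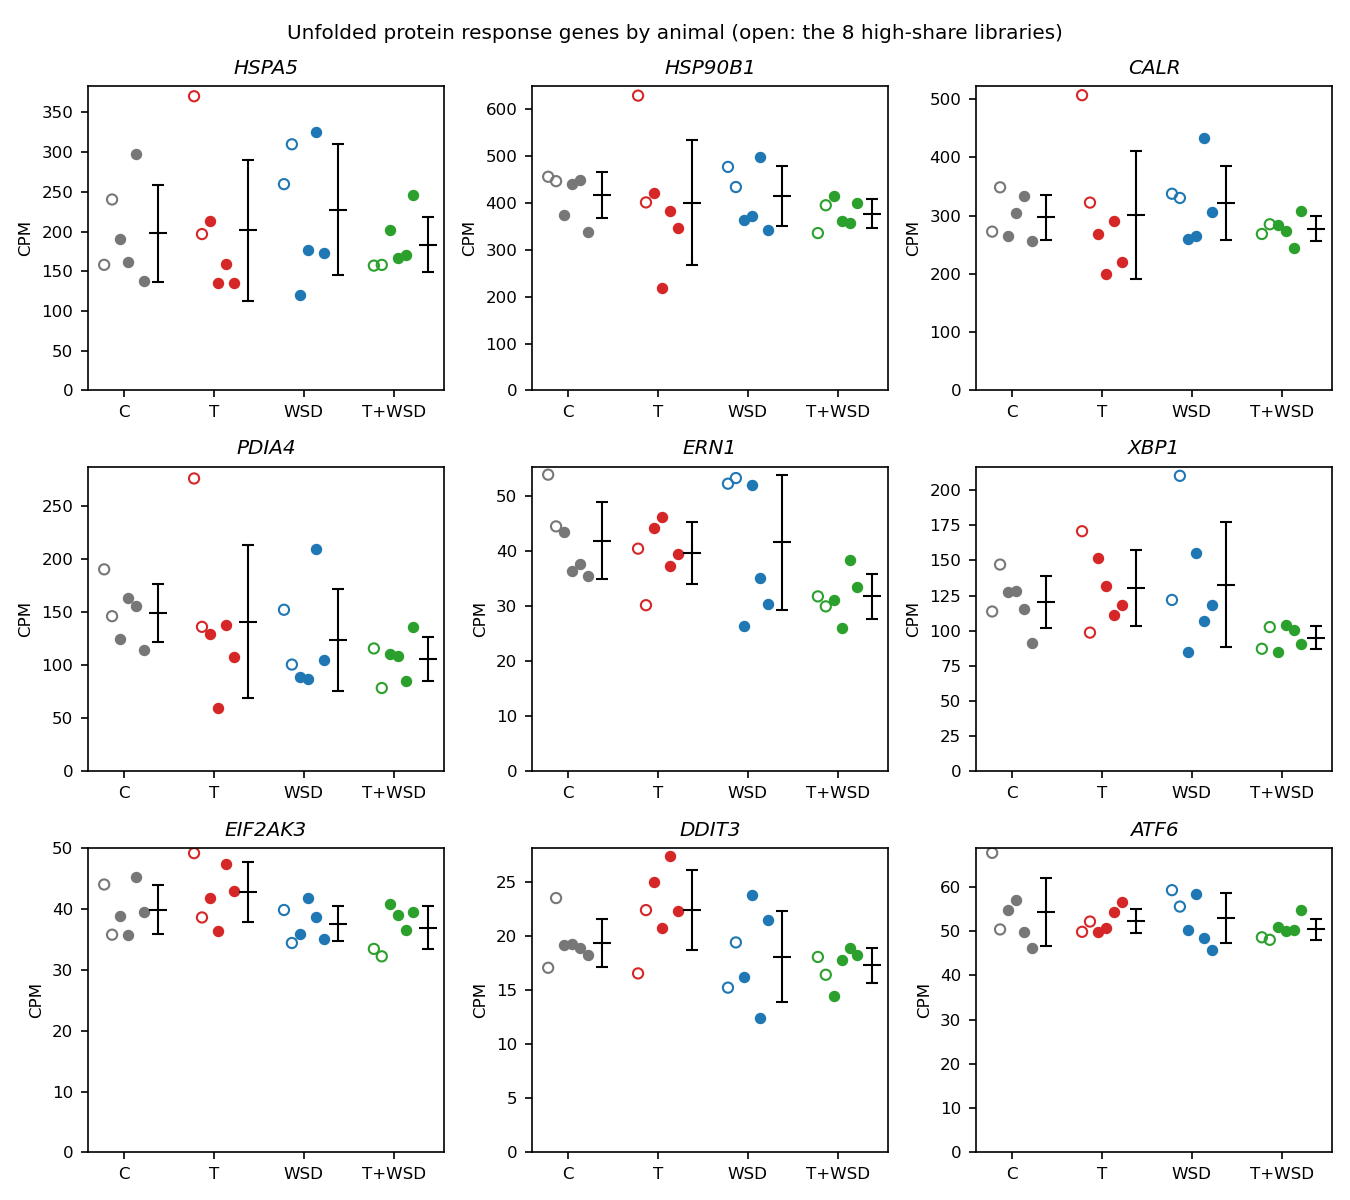
Level of 9 ER stress genes in CPM (vertical axis, from 0) in each of 24 animals, by group, with one point per animal, open circles for the 8 high-share libraries and bars for the mean and SD of 6 animals. The groups overlap for every gene, animal 13 of the *T* group stands highest for *HSPA5*, *HSP90B1*, *CALR*, *PDIA4* and *EIF2AK3*, and the *T* + *WSD* mean is the lowest of the 4 means in each panel.

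In the IRE1 branch the *T* + *WSD* animals lay mostly at the lower end of the other groups. *ERN1* ran from 35.5 to 53.9 CPM in *C* with a median of 40.5. In *T* it ran from 30.2 to 46.2 CPM with a median of 39.9. In *WSD* it ran from 26.4 to 53.3 CPM with a median of 43.5. In *T* + *WSD* it ran from 26.0 to 38.4 CPM with a median of 31.5, so that 5 of 6 animals were below every control but only 1 of 6 was below every *WSD* animal. *XBP1* ran from 91.1 to 147 CPM in *C* with a median of 122. In *T* it ran from 98.7 to 171 CPM with a median of 125. In *WSD* it ran from 84.8 to 210 CPM with a median of 120. The *T* + *WSD* animals were close together, from 85.2 to 104 CPM with a median of 95.9. Of these 6, 3 were below every control and 3 below every *T* animal, but 0 below every *WSD* animal.

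*EIF2AK3* and *ATF6* had the narrowest ranges of the 9 genes. *EIF2AK3* averaged 39.9 ± 4.02 CPM (SD, n = 6) among controls, 42.7 ± 4.95 with testosterone, 37.6 ± 2.93 with the diet and 36.9 ± 3.49 with both. *DDIT3*, the pro-apoptotic factor CHOP, averaged 19.3 ± 2.19 CPM (SD, n = 6) among controls, 22.4 ± 3.71 with testosterone, 18.1 ± 4.23 with the diet and 17.3 ± 1.61 with both. *DDIT3* had the fewest reads, with 58 in its lowest library. *ATF6* averaged 54.3 ± 7.60 CPM (SD, n = 6) among controls, 52.3 ± 2.73 with testosterone, 53.0 ± 5.58 with the diet and 50.5 ± 2.37 with both. The ratio of the highest to the lowest of 24 animals was 1.48 for *ATF6* and 1.53 for *EIF2AK3*. It was 2.07 for *ERN1*, 2.20 for *DDIT3*, 2.48 for *XBP1*, 2.54 for *CALR*, 2.87 for *HSP90B1*, 3.07 for *HSPA5* and 4.60 for *PDIA4*.

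Whether testosterone, diet or both changed these genes was tested with edgeR's quasi-likelihood test in one fit of all 24 animals, with Benjamini-Hochberg adjustment over 15207 genes. To be called, a gene needed an adjusted p under 0.05 and more than a 1.5-fold change either way. Between *T* + *WSD* and *C*, 0 of the 9 genes were called, where 10% of all genes were called. At an adjusted p under 0.05 alone the counts were also 0 of 9, against 17.1% of all genes. At an unadjusted p under 0.05, 1 of 9 passed, against 32.1% of all genes, and DESeq2 called 0 of 9. *ERN1* was that gene, with a log2 fold change of -0.39 (SE 0.16, 95% interval -0.73 to -0.06, edgeR adjusted p = 0.0919). *PDIA4* had the lowest estimate at -0.49 (SE 0.27, interval -1.04 to 0.06, edgeR adjusted p = 0.206). *XBP1* stood at -0.34 (SE 0.17, interval -0.69 to 0.01, edgeR adjusted p = 0.167). The other 6 genes lay between -0.16 for *DDIT3* and -0.10 for *CALR*, with edgeR adjusted p from 0.406 to 0.821. For 5 of the 9 (*HSP90B1*, *CALR*, *ATF6*, *EIF2AK3* and *DDIT3*) the interval stayed within a 1.5-fold change in either direction. The intervals of *HSPA5*, *PDIA4*, *ERN1* and *XBP1* did not, so a 1.5-fold lower level was not excluded for them.

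**Figure D2:**
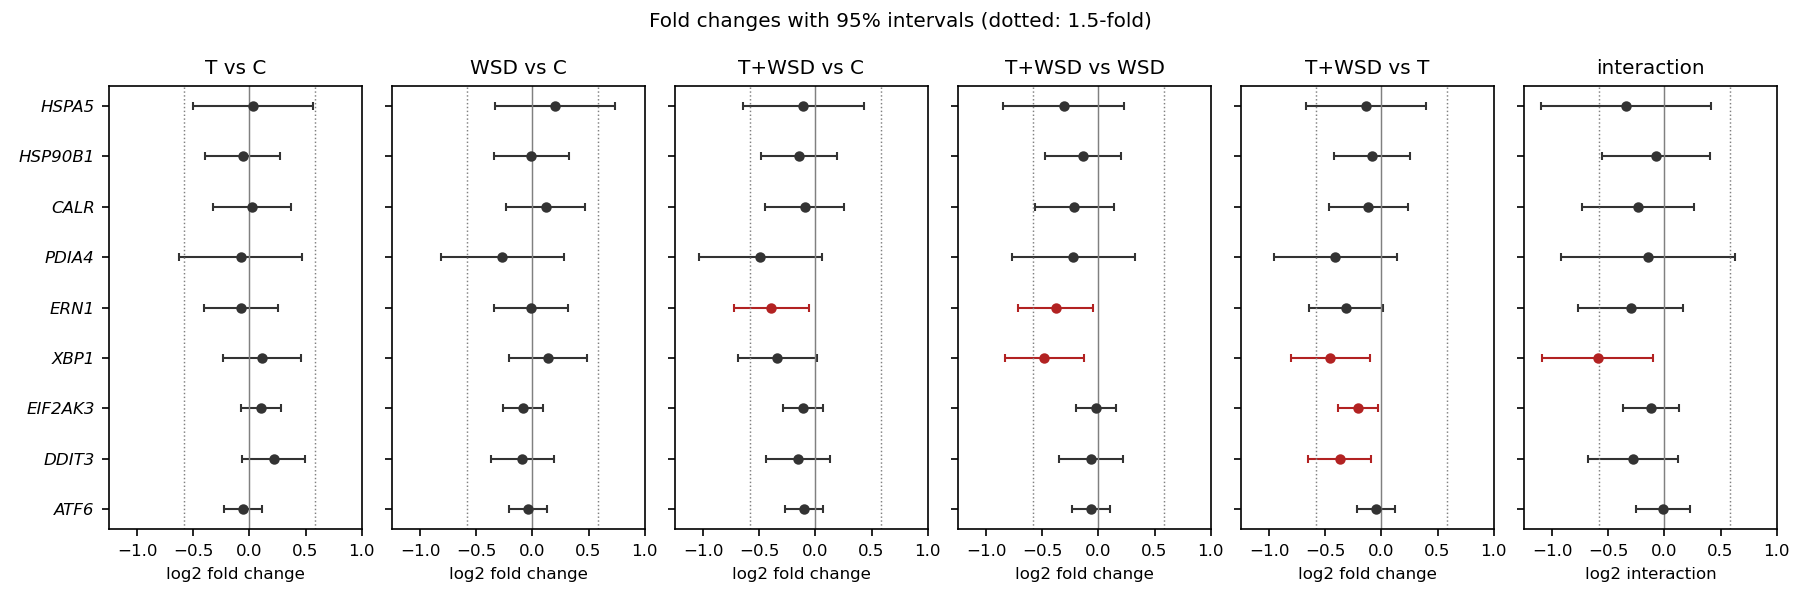
Log2 fold change (horizontal axis) of 9 ER stress genes in 5 group comparisons and in the interaction of testosterone and diet, with points for the edgeR estimate and bars for the 95% interval over 24 animals. Intervals that exclude 0 are red (7 of 54), all on the negative side, and none of the 54 passed the adjusted threshold, with dotted lines at a 1.5-fold change.

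Estimates for these genes depended on the samples and covariates used. With only *C* and *T* + *WSD* fitted, *XBP1*, *ERN1* and *PDIA4* reached an adjusted p of 0.0476, 0.0414 and 0.0443 at fold changes still under 1.5. With the 16 other libraries, 4 per group, *ERN1* was at -0.23 (edgeR adjusted p = 0.483), *XBP1* at -0.26 (0.379) and *PDIA4* at -0.32 (0.559). With the mesothelial marker level as a covariate, *ERN1* was at -0.18, *XBP1* at -0.32 and *PDIA4* at 0.12, each at an adjusted p of 0.9995. That level, a mean log2 CPM per animal, ran from 6.37 to 8.14 in *C* and from 2.95 to 5.68 in *T* + *WSD*. With no overlap between the groups, this fit can hardly separate group from covariate, and the lost calls do not decide what the mesothelial share accounts for. All 9 estimates were negative in the fit of 24 animals, 7 of 9 in the 16 libraries, and 3 of 9 with the mesothelial covariate, while 45.1% of all genes were positive. The median over the 9 genes was -0.15, and over all genes -0.04.

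Either treatment alone gave estimates of both signs, from -0.27 to 0.22. In *T* against *C*, 0 of 9 genes and 0% of all genes were called by edgeR. At an unadjusted p under 0.05 the counts were 0 of 9 against 8.63% of all genes, and DESeq2 called 0 of 9. Estimates ran from -0.08 for *PDIA4* to 0.22 for *DDIT3* (SE 0.14, interval -0.06 to 0.50), the highest of this comparison. For 8 of 9 genes the interval stayed within 1.5-fold, *PDIA4* being the exception. In *WSD* against *C*, 0 of 9 genes and 0% of all genes were called by edgeR, 0 of 9 against 18.5% of all genes had an unadjusted p under 0.05, and DESeq2 called 0 of 9. The study itself, with DESeq2 at these thresholds, reported changed genes for either treatment alone, more of them for the diet. The share of all genes that DESeq2 called here is not given. Estimates ran from -0.27 for *PDIA4* (SE 0.27) to 0.20 for *HSPA5* (SE 0.26). For 7 of 9 the interval stayed within 1.5-fold, with *HSPA5* and *PDIA4* as the exceptions.

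Adding one treatment to the other was compared next, in comparisons that share the *T* + *WSD* animals with each other and with the one against *C*. Between *T* + *WSD* and *WSD*, edgeR called 0 of 9 genes against 0.815% of all genes, and DESeq2 called 0 of 9. At an adjusted p under 0.05 alone it was 0 of 9 against 1.67%, and at an unadjusted p under 0.05 it was 2 of 9 against 20%. These were *XBP1*, at -0.48 (SE 0.17, edgeR adjusted p = 0.117), and *ERN1*, at -0.38 (SE 0.16, edgeR adjusted p = 0.188). Without animal 21 of the *WSD* group, which had the lowest *XBP1* and *ERN1* levels of its group, *XBP1* was at -0.58 with an adjusted p of 0.0405. Over the 12 fits with 1 animal left out, *XBP1* ran from -0.58 to -0.31. Its edgeR adjusted p was highest, at 0.294, without animal 20 of *WSD*, which had the highest *XBP1* level of all. Between *T* + *WSD* and *T*, edgeR called 0 of 9 against 3.77% of all genes, and DESeq2 called 0 of 9. At an adjusted p under 0.05 alone it was 0 of 9 against 6.5%, and at an unadjusted p under 0.05 it was 3 of 9 against 25.9%. These were *XBP1* at -0.45 (SE 0.17, edgeR adjusted p = 0.0989), *DDIT3* at -0.37 (SE 0.14, edgeR adjusted p = 0.0931) and *EIF2AK3* at -0.21 (SE 0.09, edgeR adjusted p = 0.134). With only these 2 groups fitted, the adjusted p of *XBP1* was 0.0410.

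The interaction asks whether the testosterone effect differed between diets, and its calls used an adjusted p under 0.1. edgeR called 0 of 9 genes against 0.809% of all genes, DESeq2 called 0 of 9, and 1 of 9 against 13.5% of all genes had an unadjusted p under 0.05. That gene was *XBP1*, at -0.59 (SE 0.24, interval -1.09 to -0.10, edgeR adjusted p = 0.276). The *XBP1* estimate for testosterone was 0.11 on chow and -0.48 on the Western-style diet. The remaining 8 lay between -0.34 for *HSPA5* and -0.01 for *ATF6*.

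For 0 of 9 genes did every animal of one group lie above or below every animal of the other. Over all genes this held for 3.49% higher and 4.12% lower in *T* + *WSD* against *C*, 1.47% and 1.37% against *WSD*, and 2.99% and 3.1% against *T*. For the single treatments against *C* it held for 0.138% higher and 0.125% lower with testosterone, and 0.23% and 0.171% with the diet.

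*T* + *WSD* had the lowest mean of the 4 groups for 9 of 9 genes, and for 38.7% of all genes. These means come from the same animals as the comparisons above and add no separate test. In that order no neighbouring groups that were compared passed the test for any gene, and *T* against *WSD* was not tested. Spread between animals also differed between groups, a description made after the values were seen. The coefficient of variation (CV, the SD as a percent of the mean) was lowest in *T* + *WSD* for 7 of 9 genes and for 50.6% of all genes. The median CV of the 9 genes in *T* + *WSD* was 9.34%, and that of all genes was 15.7%. The same figures were 14% and 23.5% among controls, 20.7% and 20.4% with testosterone, and 23.4% and 23.3% with the diet.

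Within groups, the chaperone genes went up and down together from animal to animal. Pearson's r of the log2 CPM deviations from the group means was taken over 24 animals, as a description with no test, since all genes share the same libraries and depth. It ran from 0.687 to 0.871 over the 6 pairs of *HSPA5*, *HSP90B1*, *CALR* and *PDIA4*, with a median of 0.847. Without animal 13 of the *T* group the range was 0.581 to 0.816, and in the 16 libraries that are not high-share it was 0.677 to 0.939. The 20 pairs of a chaperone gene with *ERN1*, *XBP1*, *EIF2AK3*, *DDIT3* or *ATF6* ran from -0.471 to 0.536 with a median of 0.10. *DDIT3* had the negative end, with *PDIA4*. Among the 5 sensor and factor genes r ran from -0.192 to 0.637, the highest being that of *ERN1* with *XBP1*.

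**Figure D3:**
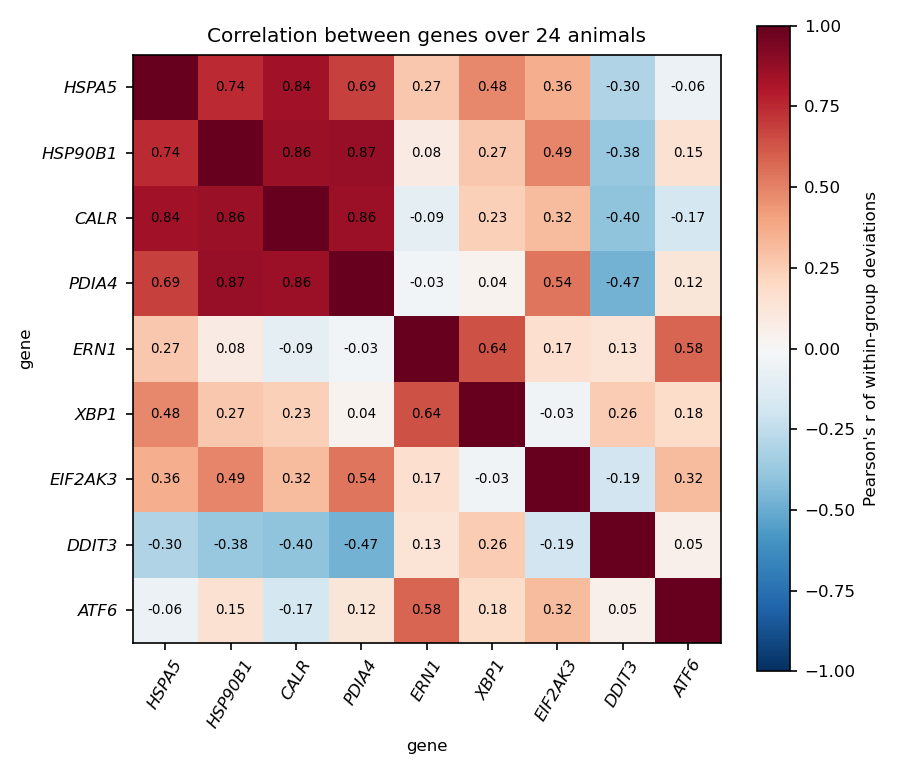
Pearson's r (colour and printed value) between 9 ER stress genes, from log2 CPM deviations from group means over 24 animals, with genes on both axes. The 4 chaperone genes form a block of high r in the upper left, *ERN1* pairs with *XBP1* and *ATF6*, and *DDIT3* is negative with each chaperone gene.

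The genes whose deviations were most like each member, out of all tested genes with a symbol, are given as a description over the same 24 animals. *HYOU1*, an ER chaperone of the Hsp110 type, was among the 3 closest to *HSP90B1* (r = 0.938), *CALR* (0.901) and *PDIA4* (0.888). The disulfide isomerase *PDIA6* was among the 3 closest to *PDIA4* (0.903) and *HSP90B1* (0.887), and its relative *PDIA3* was close to *HSP90B1* (0.892). *CALR* also had *CRELD2* (0.895) and *ACTB* (0.894), and *PDIA4* had *SEC24D* (0.892), a coat protein of ER export vesicles. *HSPA5* was closest to *FKBP4* (0.854), *HSPH1* (0.852), both heat shock protein partners of the cytosol, and the ER co-chaperone *DNAJB11* (0.843).

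*ERN1* was closest to *MAFF* (r = 0.909), *CEBPD* (0.896) and *MYC* (0.871), genes of transcription factors that respond early to many stimuli. *XBP1* was closest to *NOCT* (0.876), *TNFRSF10B* (0.856) and *CREM* (0.837). *DDIT3* was closest to *RRAGC* (0.741), *PRPF31* (0.719) and *ERMAP* (0.705). *EIF2AK3* had *MTDH* (0.810), *ANKFY1* (0.734) and *RASSF1* (0.717), and *ATF6* had *OTUD4* (0.836) and *DDX18* (0.824).

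A set of 10 immediate early genes, of which 5 had a row, was measured because biopsy handling can raise such genes. Their level had r of 0.799 with *ERN1* and 0.707 with *XBP1* over 24 animals, and 0.833 and 0.604 in the 16 libraries. Their summed level ran from 82.1 to 138 CPM among controls, 52.8 to 320 with testosterone, 44.8 to 364 with the diet and 63.3 to 118 with both. The 6 *T* + *WSD* animals had a median of 81.3 CPM and the controls 115. Fibroblast markers had r of -0.576 with *ERN1* and -0.453 with *XBP1*, endothelial markers -0.441 and -0.473, and macrophage markers -0.0964 and -0.0743. Mesothelial markers had r of 0.353 with *ERN1* and -0.00743 with *XBP1*, and adipocyte markers -0.365 and 0.105. Each r was taken with the log2 of the summed CPM, so it follows mostly the most abundant markers of a list. The part of these markers and of the immediate early genes in the *ERN1* and *XBP1* values was not tested beyond the mesothelial covariate above.

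The wider ER machinery was followed in 7 lists holding 115 genes, of which 99 were tested, the 9 genes above included. Between *T* + *WSD* and *C*, 3 of 99 were called, against 10% of all genes, and 14 passed an adjusted p under 0.05 alone (14.1%, against 17.1% of all genes). Of these 14, 3 were higher and 11 lower, where 7.18% and 9.94% of all genes were. Estimates were negative for 73 of 99 genes (73.7%) and for 54.9% of all genes, with a median log2 fold change of -0.11. All 3 called genes were targets of ATF4 and CHOP, and they did not go one way.

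*ASNS*, asparagine synthetase, a target of the amino acid response, ran from 8.76 to 20.8 CPM in *C* with a median of 12.5 and from 21.8 to 36.4 CPM in *T* + *WSD* with a median of 24.5. The groups did not overlap, and it rose by a log2 fold change of 0.93 (SE 0.25, edgeR adjusted p = 0.0146), while 3.49% of all genes had *T* + *WSD* above every control. Its *WSD* animals ran from 11.5 to 35.5 CPM with a median of 24.2, and its *T* animals from 10.7 to 19.1 CPM with a median of 13.5. *VLDLR*, the very low density lipoprotein receptor, ran from 49.4 to 106 CPM in *C* with a median of 74.7 and from 34.4 to 54.3 CPM in *T* + *WSD* with a median of 37.4. It fell, with a log2 fold change of -0.92 (SE 0.23, edgeR adjusted p = 0.0115). Animal 24 of *WSD* stood at 108 CPM for *VLDLR*, and the other *WSD* animals ran from 43.8 to 52.7 CPM. The *T* animals ran from 44.3 to 93.0 CPM. *NUPR1*, a stress-induced nuclear protein, ran from 29.2 to 48.6 CPM in *C* with a median of 33.5 and from 16.6 to 30.5 CPM in *T* + *WSD* with a median of 22.2. It fell as well, at -0.66 (SE 0.21, edgeR adjusted p = 0.0320). For *NUPR1* the *WSD* animals ran from 15.4 to 48.5 CPM and the *T* animals from 24.4 to 40.7 CPM. In the 16 libraries the adjusted p of the 3 genes was 0.0995, 0.194 and 0.207 in that order, and with the mesothelial covariate it was 0.9995 for each. The *ASNS* estimate was 0.85 in the 16 libraries and 1.11 with the covariate. Those of *VLDLR* (-0.68 and -0.46) and *NUPR1* (-0.49 and -0.35) were smaller in size than in the fit of 24 animals, with the covariate by over 1.5 times. Leaving out any of animals 1 or 2 of *C* or 8, 9 or 10 of *T* + *WSD* took *NUPR1* over the threshold, up to an adjusted p of 0.0990.

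Between *T* + *WSD* and *T*, 2 of 99 were called against 3.77% of all genes, *ASNS* at 0.83 (SE 0.24, edgeR adjusted p = 0.0444) and *VLDLR* at -0.91 (SE 0.23, edgeR adjusted p = 0.0261). Leaving out any 1 of these 12 animals left 0 or 1 of the 2 calls, and the 16 libraries and the mesothelial covariate left 0 by edgeR. The estimates were then 0.81 (adjusted p = 0.0883) and 0.99 (0.466) for *ASNS*, and -0.91 (0.0829) and -0.53 (0.699) for *VLDLR*. Between *T* + *WSD* and *WSD*, edgeR and DESeq2 each called 0 of 99. At an unadjusted p under 0.05, 1 was higher and 23 lower, where 7.9% and 12.1% of all genes were, and 80.8% of the 99 were negative against 54.6% of all genes. In *T* against *C* edgeR called 0 of 99, with 3 higher and 3 lower at an unadjusted p under 0.05 (3.54% and 5.08% of all genes) and 0 called by DESeq2. In *WSD* against *C* edgeR called 0 of 99, with 11 higher and 3 lower at an unadjusted p under 0.05 (9.59% and 8.87% of all genes) and 1 called by DESeq2. In the interaction edgeR called 0 of 99, against 0.809% of all genes, with 1 positive and 10 negative at an unadjusted p under 0.05 (11 of 99, against 13.5% of all genes) and 1 called by DESeq2. The shares of all genes that DESeq2 called are not given, so its counts over the 99 genes cannot be set against them.

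**Figure D4:**
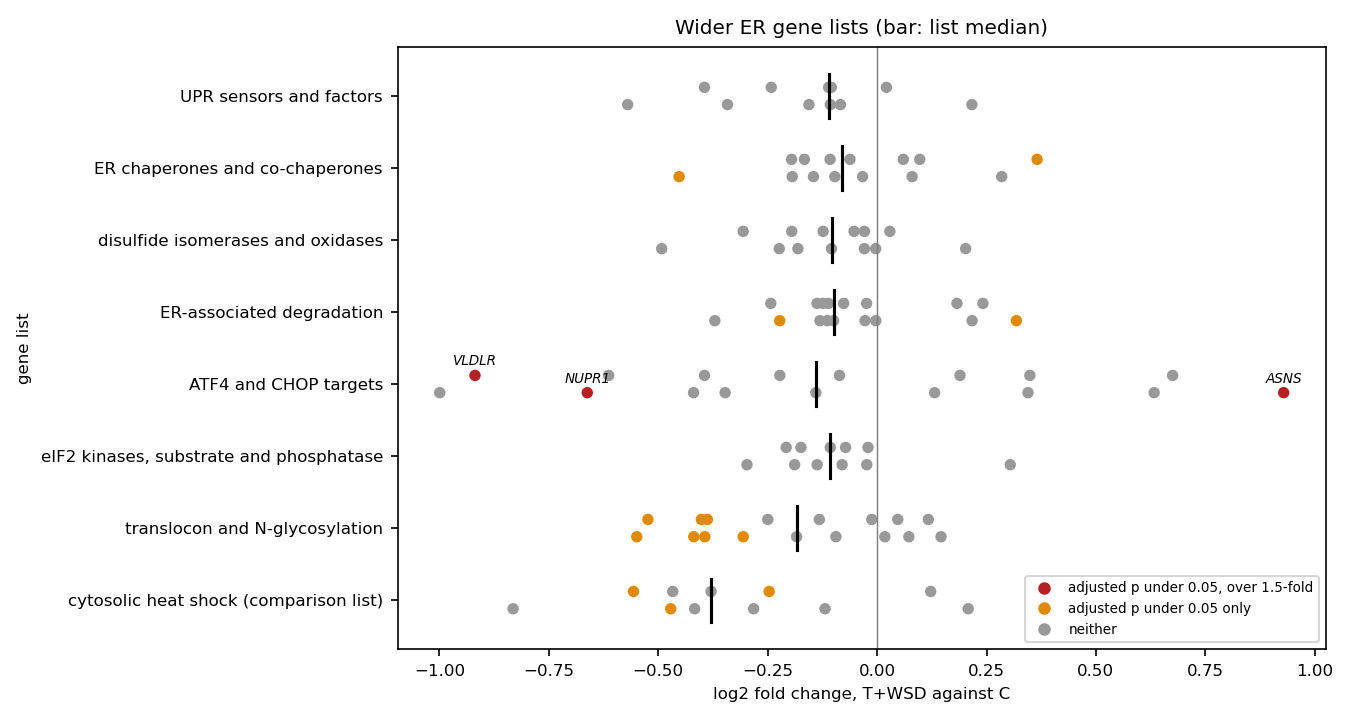
Log2 fold change in *T* + *WSD* against *C* (horizontal axis) of the genes of 7 ER lists and 1 cytosolic heat shock list (vertical axis), with one point per gene and a bar at the list median. Called genes are red (*ASNS*, *VLDLR*, *NUPR1*), and genes past the adjusted p alone are orange, 7 of them among the 17 of protein translocation and N-glycosylation.

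By list, in *T* + *WSD* against *C*, 0 of 11 sensors and factors passed an adjusted p under 0.05 by edgeR (1 higher and 2 lower at an unadjusted p under 0.05, where 13.7% and 18.4% of all genes were). Of 14 chaperones and co-chaperones, 1 was higher and 1 lower at that adjusted threshold. Of 13 disulfide isomerases and oxidases 0 passed (1 lower at an unadjusted p under 0.05), of 17 genes of ER-associated degradation 1 was higher and 1 lower, and of 11 genes around eIF2 0 passed (1 higher and 2 lower at an unadjusted p under 0.05). The translocon and N-glycosylation list, whose products bring proteins into the ER and attach sugar chains, had 7 of 17 lower (41.2%), where 9.94% of all genes were lower at that threshold, all 7 under 1.5-fold. Its median was -0.18. Against *T*, 3 of these 17 passed an adjusted p under 0.05 by edgeR, all lower (17.6%, against 6.5% of all genes in either direction). Against *WSD*, 0 of 17 passed, where 1.67% of all genes did, and 16 of 17 estimates were negative, against 54.6% of all genes.

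The 7 genes of this list that were lower against *C* were picked out after their values were seen. *SSR2*, a translocon-associated subunit, ran from 101 to 147 CPM in *C* with a median of 118, and from 88.4 to 94.98 CPM in *T* + *WSD* with a median of 91.5, at a log2 fold change of -0.42 (SE 0.08, edgeR adjusted p = 0.00322). *RPN1*, a subunit of the oligosaccharyltransferase, ran from 265 to 333 CPM in *C* with a median of 289, and from 210 to 241 CPM in *T* + *WSD* with a median of 218, at -0.39 (SE 0.08, edgeR adjusted p = 0.00409). In both genes the groups did not overlap, as was the case for 4.12% of all genes in that direction. The catalytic subunit *STT3B* of that enzyme was at -0.55, the subunits *OSTC* and *DDOST* at -0.52 and -0.31, and the signal peptidase subunits *SPCS1* and *SPCS2* at -0.39 and -0.40, with edgeR adjusted p from 0.00694 to 0.0265. Without animal 1 of *C*, whose mesothelial markers summed to 39066 CPM, 3 of the 7 passed. In the 16 libraries and with the mesothelial covariate 0 passed by edgeR, with estimates for *SSR2* of -0.37 and -0.24. Over the 7 alternative fits, estimates of other genes came closer to 0. The closest were -0.11 for *STT3B*, -0.12 for *OSTC*, -0.06 for *DDOST*, -0.13 for *SPCS2* and -0.17 for *RPN1*. That of *SPCS1* was -0.26. Of 11 cytosolic heat shock genes, measured for comparison, 3 were lower at an adjusted p under 0.05 (27.3%, against 9.94% of all genes), with a list median of -0.38. That count was 1 with DESeq2's size factors, with no filter on low counts or with only the 2 groups fitted, 0 in the 16 libraries and with the mesothelial covariate, and from 0 to 3 with an animal left out.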

How the data were processed

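Total RNA of omental WAT from 24 female macaques was sequenced by the authors as single reads after ribosomal RNA depletion. Per the labels and the study's methods, reads were checked with FastQC 0.11.5, trimmed with Trimmomatic 0.36 and aligned to rheMac8 with STAR 2.5.2b. The counting tool, its strand setting and the annotation release are not given in the sources used here, so reads of overlapping antisense genes cannot be told apart. The deposited values are raw read counts per gene and animal. Groups came from the sample titles.

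Genes were kept by edgeR's filterByExpr (count of at least 10, total of at least 15). Counts were scaled by TMM and tested with edgeR 4.0.16 (R 4.3.3) in a quasi-likelihood fit of the 4 groups. The SE was the estimate divided by the square root of its F statistic, and intervals are 95% intervals. DESeq2 1.42.0 served as an alternative (the study used version 1.18.1), beside those listed in the closing section. The 8 high-share libraries, which no label marks as a batch, were set by over 5% of reads from ENSMMUG00000038258. Scripts were tested on simulated data. The p-values treat animals as replicates, and the SE and intervals cover the spread between animals as well as counting error.

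The gene names, the lists and the tests were chosen with earlier results of these data known. The rule for named genes took the 10 genes (9 with values), the called genes of the wider lists (up to 3 per list with the smallest adjusted p) and, for each gene, the 3 others with the highest within-group correlation, of which 1 for *ATF6* is not reported here. The 7 named translocon and N-glycosylation genes fall outside this rule and were chosen after their values were seen. Gene symbols were matched to identifiers through a name table. Promoter motifs were not searched here.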

Additional observations from a re-analysis of the deposited data

Results flagged for a closer look

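In each of 9 genes and 4 groups of 6 animals, the gap between the highest or lowest animal and its nearest neighbour was set against the whole range of the group. Of these 36 groups of values, 3 had an animal beyond Dixon's 95% critical value, and chance alone gives about 1 in 20. *HSPA5* in animal 13 of the *T* group was at 370.3 CPM, with the next animal at 213 CPM and a gap of 0.666 of the range. *PDIA4* in the same animal was at 276 CPM, with the next at 138 CPM and a gap of 0.640 of the range. This library is one of the 8 high-share libraries, with 13960864 reads, of which ENSMMUG00000038258 took 19.9%. *DDIT3* in animal 2 of *C*, also one of these 8, was at 23.5 CPM, with the next at 19.2 CPM and a gap of 0.660 of the range. Without animal 13 of the *T* group, the *T* against *C* estimate was -0.23 for *HSPA5* (0.03 with it) and -0.38 for *PDIA4* (-0.08 with it), and that of *HSPA5* in *T* + *WSD* against *T* was 0.13 (-0.14 with it). No interaction of testosterone and diet passed the test for these genes.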

How the results depend on the processing

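No paired analysis was possible because the replicate numbers are unique to each animal and the groups share none. The count of called genes stayed at 0 of 9 in each of the 5 comparisons between groups and in the interaction under DESeq2, its size factors in edgeR, no filter on low counts, membership of the 8 high-share libraries as a covariate, the 16 other libraries, the mesothelial covariate, and each animal left out. It was also 0 in the 5 comparisons with only the 2 groups compared and with no fold threshold, and in the interaction at an adjusted p under 0.05. Over the 99 genes of the wider lists, the 3 calls in *T* + *WSD* against *C* became 14 with no fold threshold and 0 in the 16 libraries or with the mesothelial covariate, and ranged from 2 to 4 with an animal left out. The 2 calls in *T* + *WSD* against *T* became 6 with no fold threshold, 1 with no filter, 0 in the 16 libraries or with the mesothelial covariate, 4 with only the 2 groups compared, and 0 to 1 with an animal left out. A count of 0 became 1 in *T* + *WSD* against *WSD* with no fold threshold, and 1 in *WSD* against *C* and in the interaction with DESeq2. With an animal left out it was 0 to 1 in *WSD* against *C* and 0 to 2 in the interaction, the 2 coming without animal 21 of *WSD*. The 7 lower genes of the translocon and N-glycosylation list, an alternative chosen after seeing the data, became 0 in the 16 libraries and with the mesothelial covariate, and ranged from 3 (without animal 1 of *C*) to 7 with an animal left out. The 3 lower heat shock genes, added in the same way, became 1 with DESeq2's size factors, no filter or only the 2 groups compared, 0 in the 16 libraries and with the mesothelial covariate, and 0 to 3 with an animal left out. Where calls of *ASNS* were lost in the 16 libraries or with the mesothelial covariate, its estimate in *T* + *WSD* against *C* was 0.85 and 1.11. The shares of all genes called in these other fits are not given here. A loss of calls over all genes thus cannot be told apart from one in these lists. Fewer samples enter the 16 libraries. The mesothelial level of *T* + *WSD* does not overlap that of *C* or *T*, so the covariate fit can hardly separate these groups. For the other changes the cause was not tested.

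The sign of a log2 fold change turned in these cases, none past the threshold before or after. DESeq2 gave 0.00773 for *EIF2AK3* in *T* + *WSD* against *WSD* and 0.0171 for *ATF6* in the interaction, and the size factors gave 0.00933 for the latter. The batch covariate gave, in *T* against *C*, -0.00816 for *HSPA5* and -0.00464 for *CALR*.

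In the 16 libraries, *T* + *WSD* against *C* gave 0.0113 for *HSPA5* and 0.00654 for *ATF6*. *T* against *C* gave -0.288 for *HSPA5*, 0.0322 for *ATF6*, 0.135 for *ERN1* and -0.241 for *CALR*. *T* + *WSD* against *WSD* gave 0.0324 for *ATF6* and 0.0529 for *EIF2AK3*, and *T* + *WSD* against *T* gave 0.300 for *HSPA5*, 0.175 for *HSP90B1*, 0.197 for *CALR* and 0.0330 for *PDIA4*. The interaction gave 0.277 for *HSPA5*, 0.189 for *HSP90B1*, 0.000143 for *ATF6*, 0.0644 for *CALR* and 0.214 for *PDIA4*.

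With the mesothelial covariate, *T* + *WSD* against *C* gave 0.0309 for *HSPA5*, 0.0147 for *HSP90B1*, 0.0342 for *ATF6*, 0.0455 for *EIF2AK3*, 0.00850 for *CALR* and 0.121 for *PDIA4*. *WSD* against *C* gave 0.0515 for *HSP90B1*, 0.0206 for *ATF6* and 0.0688 for *ERN1*. *T* + *WSD* against *WSD* gave 0.0136 for *ATF6*, 0.0693 for *EIF2AK3* and 0.172 for *PDIA4*, and *T* + *WSD* against *T* gave 0.0562 for *HSP90B1*, 0.0660 for *ATF6* and 0.124 for *PDIA4*. The interaction gave 0.00471 for *HSP90B1*, 0.0454 for *ATF6* and 0.175 for *PDIA4*.

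Leaving out an animal gave ranges that include 0. In *T* + *WSD* against *C* this held for *HSPA5* (-0.211 to 0.0469). In *WSD* against *C* it held for *HSP90B1* (-0.0686 to 0.0411), *ERN1* (-0.0965 to 0.0887), *XBP1* (-0.0369 to 0.241) and *ATF6* (-0.0802 to 0.0389). In *T* against *C* it held for *HSPA5* (-0.234 to 0.185), *HSP90B1* (-0.235 to 0.0645), *CALR* (-0.189 to 0.116), *PDIA4* (-0.384 to 0.0780), *ERN1* (-0.125 to 0.0113) and *ATF6* (-0.0974 to 0.0197). In *T* + *WSD* against *WSD* it held for *EIF2AK3* (-0.0539 to 0.0243) and *DDIT3* (-0.157 to 0.0302), and in *T* + *WSD* against *T* for *HSPA5* (-0.240 to 0.125), *HSP90B1* (-0.211 to 0.0885) and *CALR* (-0.214 to 0.0905). In the interaction it held for *HSP90B1* (-0.202 to 0.0971), *PDIA4* (-0.303 to 0.159) and *ATF6* (-0.0713 to 0.0286). The sign of the *ERN1*, *XBP1* and *PDIA4* estimates in *T* + *WSD* against *C* held with each animal left out. Their edgeR adjusted p rose to as much as 0.261, 0.341 and 0.396 in that order.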
